A study of Mus musculus with 6 samples.

Results

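The genes described here encode the constitutive proteasome, the protease complex that degrades ubiquitin-tagged proteins in every cell. They were chosen by symbol, as amplicons named Psma, Psmb, Psmc or Psmd followed by a number, leaving out the inducible subunits Psmb8, Psmb9 and Psmb10 and the thymus subunit Psmb11. This gave 33 of the 23930 amplicons in the table, 12 for the core particle (Psma and Psmb) and 21 for the regulatory particle (Psmc and Psmd). Psmc3ip meets the naming rule but encodes a meiotic recombination factor and no proteasome subunit, and Psma8 encodes a testis form of an alpha subunit. Psma3, Psma5 and Psmb5 were not analysed here.

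The samples were humerus shafts of mouse embryos at embryonic stage E16.5, with 3 libraries for each of 2 groups. The controls are labelled wild type and had the genotype Stat3C/+, with 1 copy of the Stat3C allele of this transcription factor gene and no Cre driver listed. The knockouts were Prrx1Cre; Stat3C/C, with Stat3C on both copies and the Cre driver, and are labelled Stat3 KO, so the groups differed in the driver as well as in Stat3. Prrx1Cre acts in limb bud mesenchyme and its descendants, such as bone and cartilage cells, while blood, vessel and muscle cells of the same shaft arise elsewhere. Nothing in the labels ties a replicate to its own embryo, so the tests measure the spread between these libraries, which may be technical.

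In the proteasome, rings of alpha and beta subunits form a barrel whose beta subunits Psmb5, Psmb6 and Psmb7 carry the cutting sites. A regulatory particle caps the barrel: its Psmc subunits form a ring of ATPases that unfolds the substrate, and its Psmd subunits bind ubiquitin chains and remove them. When proteasomes are too few, the factor NFE2L1 enters the nucleus and raises transcription of subunit genes together. Under interferon, Psmb8, Psmb9 and Psmb10 take the place of Psmb5, Psmb6 and Psmb7. In bone cells the proteasome is known for controlling the turnover of signalling proteins and transcription factors.

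Depths were 9126493 to 13376550 reads per library, and 1 read was worth 0.0748 to 0.110 RPM (reads scaled to the library total). The targeted gene itself was at 211.5, 201 and 211 RPM (controls) against 208, 201 and 170.1 RPM (knockouts), with overlapping groups and a log2 fold change of -0.11 (limma adjusted p = 0.380). Where the Stat3 amplicon lies relative to the deletion is not known here, so this level checks nothing. Each gene is read at 1 short amplicon, and amplicons differ in how well they amplify, so levels are compared between libraries and never between genes. Of the 33 genes, 14 overlap another annotated gene, and the strand used in counting is not known here.

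The constitutive proteasome genes did not move as a block. All 33 passed the filter of a mean of at least 1 RPM, and 6 of them changed between the groups (limma on log2(RPM + 1), Benjamini-Hochberg adjusted p under 0.05 over the 12846 amplicons tested). The share of all tested amplicons called this way was 16.7%, and the proteasome genes' 18.2% lies near it. The genes that rose were the beta ring genes Psmb4 and Psmb1 and the chaperone gene Psmd5, 3 of 33 where 5.71% of all amplicons rose. Those that fell were the alpha ring gene Psma1 and the lid genes Psmd7 and Psmd12, 3 of 33 where 11.0% of all amplicons fell. Fewer cells of a type and less RNA per cell cannot be told apart in these bulk samples. No change reached 2-fold, and the range on the log2 scale was -0.46 to 0.53.

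**Figure D1:**
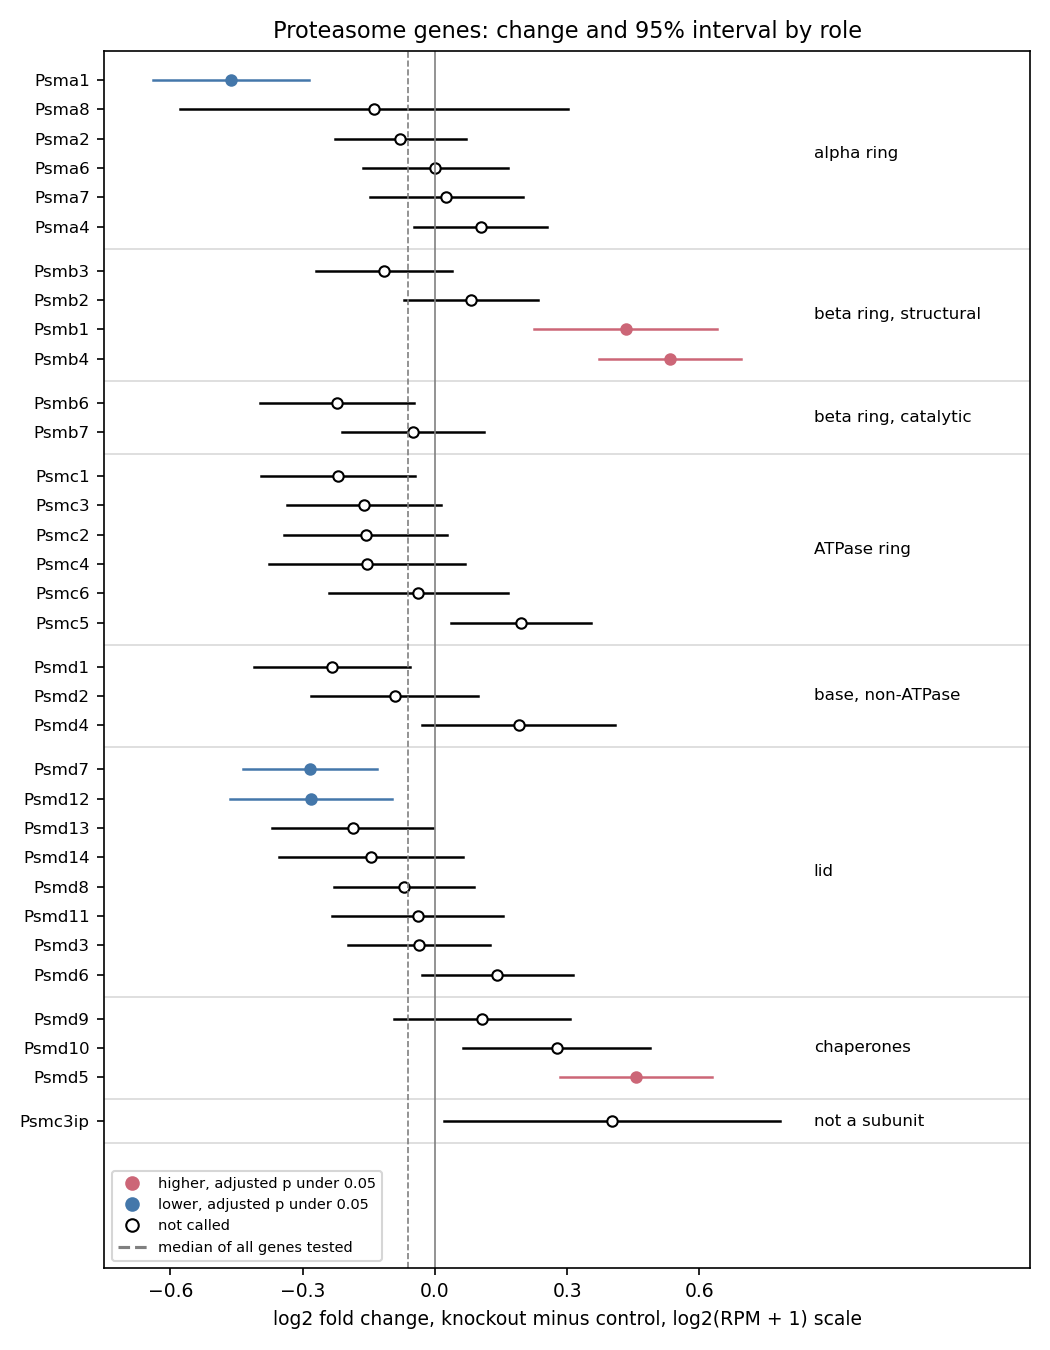
Log2 fold change (knockout minus control, log2(RPM + 1) scale) of the 33 genes matching the symbol rule, grouped by role, with 95% intervals from limma. Filled points passed an adjusted p of 0.05, the dashed line is the median of all genes tested (-0.06), and most intervals cross 0.

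Control and knockout libraries did not overlap for 13 of the 33 genes, 6 higher and 7 lower, against 33.8% of all tested amplicons (11.9% higher and 21.9% lower). The median log2 fold change was -0.05 over the 33 genes and -0.06 over all tested amplicons. With TMM scaling, which centres the bulk of genes near 0, the count was 5 higher and 2 lower, where 15.2% of all amplicons passed, 7.64% higher and 7.53% lower. Psmc5 and Psmd10 then joined the higher genes and Psmd12 left the lower ones. On recovered reads edgeR called 5 higher and 2 lower (15.4% of all amplicons, 8.19% higher and 7.18% lower), and DESeq2 called 4 higher and 2 lower (14.1%, 7.92% higher and 6.15% lower).

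NFE2L1 and NFE2L2 bind antioxidant response elements, so promoter windows of the proteasome genes were searched for TGACNNNGC, a core form of that element, on both strands. RefSeq windows of 300 bases on GRCm38.p6, from 250 bases before to 50 after a RefSeq start, were found for 26 of the 33 genes, in 28 windows. The letters occurred in 4 of the 28 windows (14.3%), against 12.4% of all 32851 windows, which lies close to it. The match in Psmd12, which fell, and those in Psmb6, Psmc6 and Psmd9, which did not pass, are shown because they are the only matches among these windows. Capitals mark the match, on the gene's strand for Psmb6 and Psmd9 and as its reverse complement for Psmc6 and Psmd12, and each run is written 5′ to 3′ on the strand given:
Psmb6, chr11:70525338-70525366, plus strand: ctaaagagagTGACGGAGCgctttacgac
Psmc6, chr14:45329587-45329615, plus strand: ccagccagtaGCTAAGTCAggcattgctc
Psmd9, chr5:123228149-123228177, plus strand: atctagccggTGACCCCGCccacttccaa
Psmd12, chr11:107479278-107479299, plus strand: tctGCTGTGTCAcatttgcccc

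The windows were also searched for CCAAT, the box bound by NF-Y, on both strands, and it was found in 39.3% of the windows of proteasome genes and 37.4% of all windows. The stretches from 250 to 51 bases before the RefSeq start are shown for Psmb4 and Psmd5, which rose, and Psma1, which fell, because these calls held in every alternative. Psma1 held CCAAT once on each strand (capitals), while the windows of Psmb4 and Psmd5 held neither motif. A match is a description of these letters and shows no binding, and these runs too are written 5′ to 3′ on the strand given. The RefSeq starts of Psmd5 (34870962) and Psmd9 (123228190) are also those of GENCODE protein-coding transcripts. The GENCODE gene of each begins further upstream, by 4006 bases for Psmd5 and 58777 bases for Psmd9:
Psmb4, chr3:94887009-94887208, minus strand: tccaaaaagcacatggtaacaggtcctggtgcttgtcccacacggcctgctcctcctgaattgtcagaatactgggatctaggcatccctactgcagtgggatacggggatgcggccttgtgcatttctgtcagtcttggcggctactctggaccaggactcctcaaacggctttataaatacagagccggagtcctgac
Psmd5, chr2:34871013-34871212, minus strand: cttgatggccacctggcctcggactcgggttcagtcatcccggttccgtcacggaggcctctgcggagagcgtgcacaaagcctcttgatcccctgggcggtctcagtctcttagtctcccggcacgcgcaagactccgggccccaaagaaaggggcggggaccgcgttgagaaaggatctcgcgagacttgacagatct
Psma1, chr7:114276167-114276366, minus strand: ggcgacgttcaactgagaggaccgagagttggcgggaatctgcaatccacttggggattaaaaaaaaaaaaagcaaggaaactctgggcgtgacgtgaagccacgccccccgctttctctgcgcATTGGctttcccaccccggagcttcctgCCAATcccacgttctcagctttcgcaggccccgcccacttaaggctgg

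The share of G and C was 53.5% in the Psmb4 stretch, 62.5% in that of Psmd5 and 57% in that of Psma1. Over the same stretch the median was 51.5% for all windows of the table and 55.2% for the windows of the proteasome genes.

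The alpha ring forms the gate of the barrel, and 1 of its 6 measured genes changed (16.7%), where 16.7% of all tested amplicons were called. Psma1 (chromosome 7 from 114264606 to 114276118, minus strand, GENCODE M21 on GRCm38) read 100.3, 95.1 and 98.6 RPM (controls) against 70.6, 67.4 and 74.7 RPM (knockouts). Every knockout library lay below every control library, with means of 98.0 ± 2.64 and 70.9 ± 3.67 RPM (SD, n = 3 each). The log2 fold change was -0.46 ± 0.09 (SE, limma adjusted p = 8.38e-04). This fall passed the threshold in each of the 16 alternatives run. The log2 fold changes of the others were -0.08 for Psma2, 0.10 for Psma4, 0.00105 for Psma6, 0.03 for Psma7 and -0.14 for Psma8, and none passed. Psma8 was low throughout, at 1.33 to 1.89 RPM.

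In the beta ring, 2 of the 4 genes without a cutting site rose, where 5.71% of all tested amplicons rose. Psmb4 (chromosome 3 from 94884093 to 94886961, minus strand), a subunit with a tail that clamps the opposite beta ring, read 224, 220.3 and 235 RPM (controls) against 306, 321 and 360 RPM (knockouts). The groups were far apart compared with their spread, at 226 ± 7.57 and 329 ± 27.8 RPM (SD, n = 3 each). Its log2 fold change of 0.53 ± 0.08 (SE, limma adjusted p = 6.77e-05) was the greatest among the 33 genes, and it passed in all 16 alternatives.

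Psmb1 (chromosome 17 from 15475021 to 15499751, minus strand), a noncatalytic subunit of the same ring, read 417, 436 and 503 RPM (controls) against 553, 540.1 and 755 RPM (knockouts). The groups did not overlap, but knockout replicate 3 stood well above the other knockout libraries, and the mean was 452 ± 45.0 RPM for controls against 616 ± 120.6 RPM for knockouts (SD, n = 3 each). The log2 fold change was 0.43 ± 0.10 (SE, limma adjusted p = 0.00506). It was 0.28 without knockout replicate 3 (adjusted p = 0.0289). It did not pass with DESeq2 on the recovered reads (adjusted p = 0.0618) or with no filter on low values (0.0537). The other 2 noncatalytic genes did not pass, with log2 fold changes of 0.08 for Psmb2 and -0.12 for Psmb3.

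**Figure D2:**
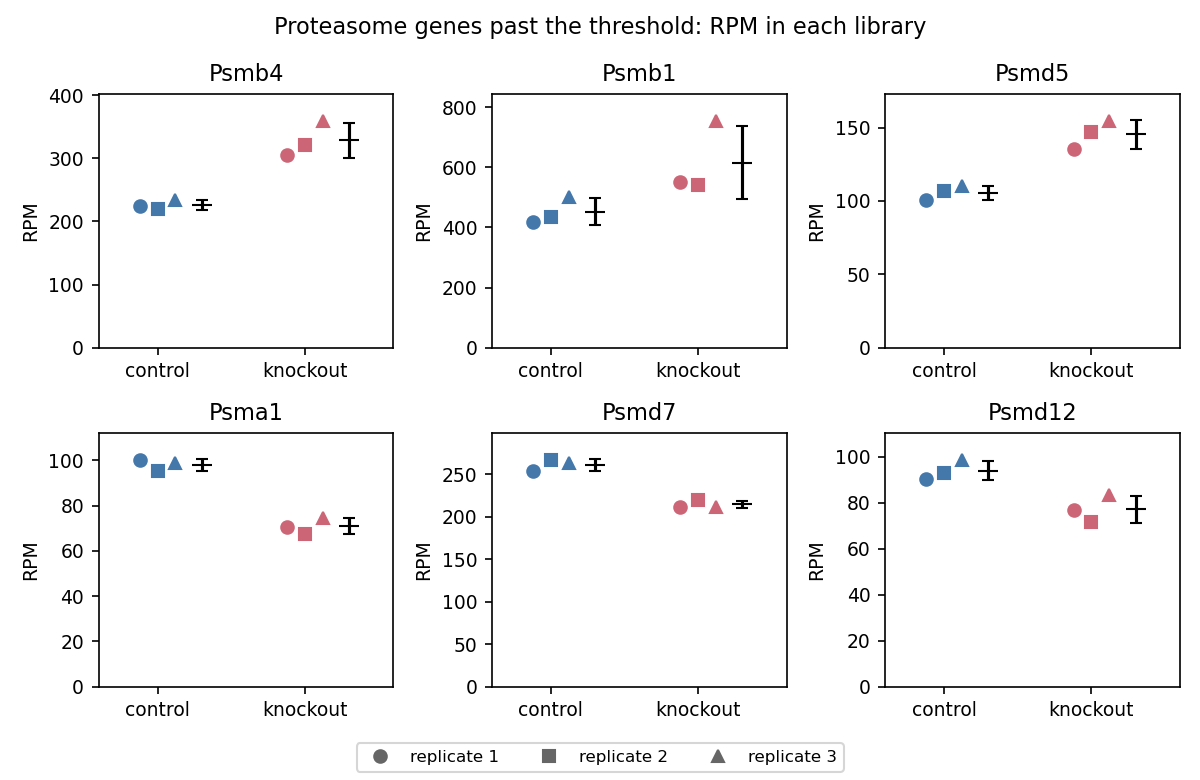
RPM in each library (colour for group, symbol for replicate number) for the 6 proteasome genes past the threshold, with mean and SD beside each group. No control library overlaps a knockout library in any panel, and knockout replicate 3 reads 755 RPM for Psmb1.

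The measured catalytic genes did not pass the test. Psmb6, whose product cuts after acidic residues, read 173, 148 and 158 RPM (controls) against 128, 136 and 146 RPM (knockouts). All knockout libraries lay below the controls, and the log2 fold change was -0.22 ± 0.08 (SE), with a 95% interval of -0.40 to -0.05 and a limma adjusted p of 0.0720. It passed without knockout replicate 3 (adjusted p = 0.0469). Psmb7, whose product cuts after basic residues, read 410.1, 387 and 409 RPM (controls) against 351, 391 and 427 RPM (knockouts). Those groups overlapped, with a log2 fold change of -0.05 and a 95% interval of -0.21 to 0.11.

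Their inducible counterparts rose. Psmb9, which replaces Psmb6, read 0.773, 0.748 and 0.657 RPM (controls) against 2.03, 1.86 and 2.15 RPM (knockouts), a log2 fold change of 0.80 (limma adjusted p = 0.0145). Its control mean of 0.726 RPM was below the filter of 1 RPM, so Psmb9 was tested only because the knockout libraries were higher. Psmb10, which replaces Psmb7, read 9.71, 8.52 and 8.71 RPM (controls) against 12.7, 13.7 and 12.6 RPM (knockouts), a log2 fold change of 0.49 (limma adjusted p = 0.0176). Psmb10 did not pass without control replicate 2 (0.0738), without knockout replicate 2 (0.0730) or with no filter (0.0612). Psmb8, which replaces Psmb5, read 5.76, 6.28 and 5.42 RPM (controls) against 15.8, 20.7 and 15.1 RPM (knockouts), a log2 fold change of 1.40 (limma adjusted p = 9.62e-07). These low levels make the size depend on the pseudocount: with 0.1 and 10 RPM in place of 1 RPM, the log2 fold change was 1.36 and 0.16 for Psmb9 and 1.53 and 0.78 for Psmb8, and edgeR on recovered reads gave 1.52 and 1.61. Psmb9 overlaps the protein-coding gene Tap1 on the opposite strand, and Psmb8 and Psmb10 each overlap an antisense transcript. The strand used in counting is not known here.

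The ratio within a library does not depend on its scaling. The log2 ratio of Psmb9 to Psmb6 was -7.78 ± 0.14 in controls and -6.09 ± 0.10 in knockouts (SD, n = 3 each), a difference of 1.70. That of Psmb10 to Psmb7 was -5.49 ± 0.08 and -4.90 ± 0.16, a difference of 0.58. Both differences had p = 0.1 by exact permutation (two-sided), also after adjustment over the 2 ratios, and this is the smallest p that 3 against 3 allows. Every knockout library lay above every control library in both. Psmb9 and Psmb10 were already called higher in these same libraries, so the p of their ratios adds no further support. Since the amplicons amplify differently, only the difference between groups can be read, not the ratio itself.

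**Figure D3:**
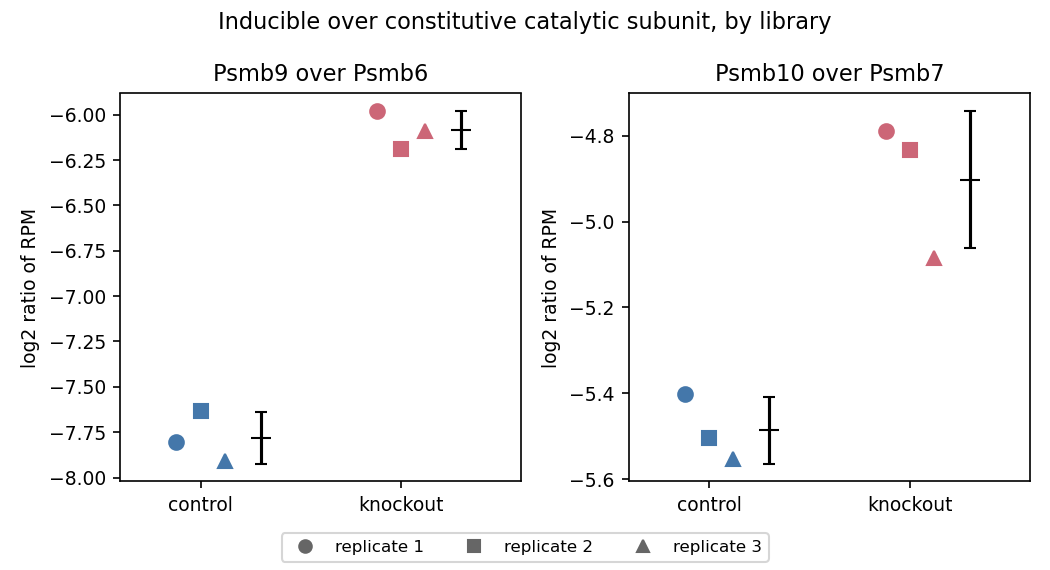
Log2 ratio of RPM of an inducible catalytic subunit to the constitutive subunit it replaces, in each library (colour for group, symbol for replicate number), with mean and SD; the vertical axes do not start at 0 and differ between panels. Knockouts lie above controls in both panels, by 1.70 for Psmb9 over Psmb6 and by 0.58 for Psmb10 over Psmb7.

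None of the 6 ATPase ring genes passed. Psmc1 had the lowest log2 fold change (-0.22, limma adjusted p = 0.0768), with 181, 165 and 180.3 RPM (controls) against 134, 160 and 158 RPM (knockouts), and these groups did not overlap. Psmc5 had the highest (0.20, limma adjusted p = 0.0816), with 249.9, 255 and 250 RPM (controls) against 266, 288 and 312 RPM (knockouts). The Psmc5 groups did not overlap either, and it passed with TMM scaling (adjusted p = 0.0388), median-of-ratios scaling (0.0305), edgeR (0.0349), DESeq2 (0.0230) and without knockout replicate 1 (0.0422). Psmc2, Psmc3, Psmc4 and Psmc6 had log2 fold changes of -0.16, -0.16, -0.15 and -0.04, and of these Psmc4 passed without control replicate 2 (adjusted p = 0.0469). Replicate spread was uneven in this ring, with a coefficient of variation in controls of 1.07% for Psmc5 and 19.0% for Psmc4, the lowest and highest of the 33 genes.

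In the rest of the base, none of 3 genes passed. Psmd1, a scaffold of the base, had a log2 fold change of -0.23 (limma adjusted p = 0.0627, and 0.0445 without knockout replicate 1), Psmd2, which docks shuttle factors, -0.09, and the ubiquitin receptor gene Psmd4 0.19. In the lid, which removes ubiquitin chains before degradation, 2 of 8 genes fell and none rose, where 11.0% of all tested amplicons fell and 5.71% rose. With TMM scaling Psmd7 alone of the lid genes passed.

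Psmd7 (chromosome 8 from 107580381 to 107588464, minus strand), the partner of the deubiquitinase Psmd14, read 254, 267 and 262 RPM (controls) against 212, 219.6 and 212 RPM (knockouts). The groups were separated with little spread, and the log2 fold change was -0.28 ± 0.07 (SE, limma adjusted p = 0.0106). It did not pass without control replicate 2 (adjusted p = 0.0584). Psmd12 (chromosome 11 from 107479484 to 107504362, plus strand), a scaffold subunit of the lid, read 90.4, 92.7 and 98.6 RPM (controls) against 76.7, 71.6 and 83.3 RPM (knockouts). These groups did not overlap, and the log2 fold change was -0.28 ± 0.09 (SE, limma adjusted p = 0.0319). This call was the least stable of the 6, since it was lost in 11 of 16 alternatives, among them TMM scaling (adjusted p = 0.0838), DESeq2 (0.123) and the removal of any library except knockout replicate 3 (at least 0.0525). Psmd14 itself had a log2 fold change of -0.15, and Psmd3, Psmd6, Psmd8, Psmd11 and Psmd13 had -0.04, 0.14, -0.07, -0.04 and -0.19.

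The chaperones Psmd5, Psmd9 and Psmd10 bind ATPase subunits while the regulatory particle is assembled and are absent from the finished complex. Psmd5 (chromosome 2 from 34849734 to 34874968, minus strand) read 100.4, 107 and 109.9 RPM (controls) against 135, 147 and 155 RPM (knockouts). Every knockout library was above every control library, with a log2 fold change of 0.46 ± 0.08 (SE, limma adjusted p = 7.12e-04), and it passed in all 16 alternatives. The gene overlaps Cutal on the opposite strand, whose own amplicon was at 0.307 RPM or less in every library. Psmd10 read 56.7, 63.8 and 76.3 RPM (controls) against 73.5, 80.8 and 83.3 RPM (knockouts). These groups overlapped, and the log2 fold change of 0.28 did not pass (limma adjusted p = 0.0659), but it did in 7 alternatives, among them TMM scaling (0.0386), edgeR (0.0396), DESeq2 (0.0410) and the removal of control replicate 3 (0.0133). Psmd9 had a log2 fold change of 0.11. Psmc3ip, the gene that is no subunit, read 2.47 to 3.61 RPM (controls) against 4.23 to 4.40 RPM (knockouts) and did not pass (adjusted p = 0.136).

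The changes of the core and regulatory genes in mean log2 level differed by less than the replicate spread, while the ratio of their summed RPM was higher in every knockout library. The median log2 fold change was -0.02 for the 12 core genes, of which 2 rose and 1 fell, and -0.07 for the 21 regulatory genes, of which 1 rose and 2 fell, beside a median of -0.06 over all tested amplicons, of which 5.71% rose and 11.0% fell. The mean log2(RPM + 1) over core genes was 7.48 ± 0.01 in controls and 7.49 ± 0.08 in knockouts, and over regulatory genes 6.82 ± 0.03 and 6.81 ± 0.03 (SD, n = 3 each). The gap between core and regulatory means was wider in knockouts by 0.03, below the replicate SD of 0.05, and it was -0.00609 without knockout replicate 3. Without Psma8 and Psmc3ip, which averaged below 10 RPM, the widening was 0.0593, and with a pseudocount of 10 RPM it was 0.0482. Both exceed the replicate SD of the main values, which is 0.0475 with more digits. No test was run on these means, since the genes share libraries and are not replicates.

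**Figure D4:**
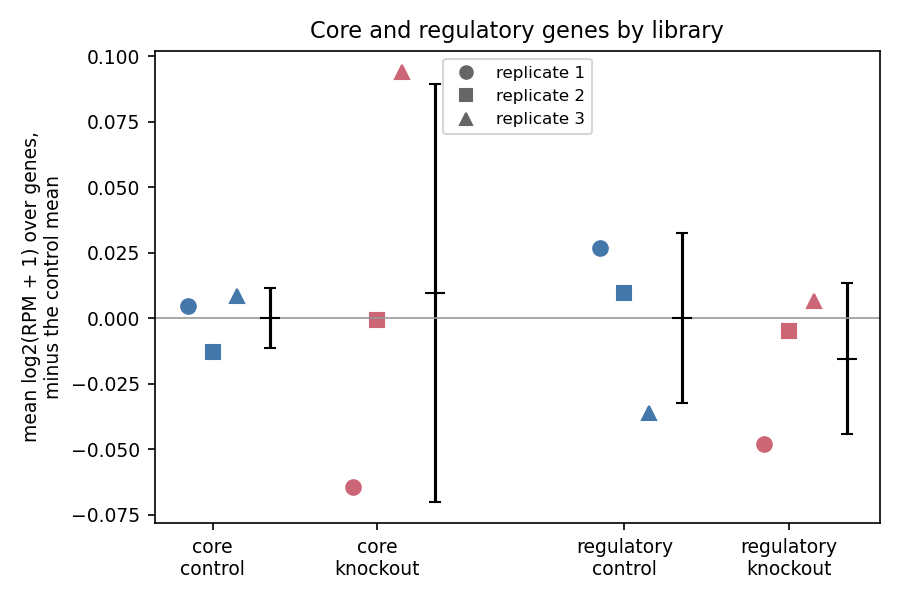
Mean log2(RPM + 1) over the 12 core genes and over the 21 regulatory genes in each library, less the mean of the controls (colour for group, symbol for replicate number), with mean and SD. The knockout core values run from -0.06 to 0.09 around the control mean, so the spread between knockout libraries exceeds the difference between groups.

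The regulatory mean includes the 3 chaperones, whose log2 fold changes were all above 0. Of the 17 regulatory subunits without the chaperones and Psmc3ip, 14 had a log2 fold change below 0, against 59.9% of all tested amplicons, with a median of -0.15. Of the 17, 2 fell (11.8%, near the 11.0% of all amplicons) and none rose. With TMM scaling 11 of 17 were below 0, against 52.5% of all, with a median of -0.10. Against these 17 subunits alone, the gap between core and regulatory means was wider in knockouts by 0.10 on the unscaled values, above the replicate SD of 0.05 found over all 33 genes.

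Summed RPM gives more weight to the abundant amplicons. The core sum was 3090.3, 3116.3 and 3171.5 RPM (controls) against 3149.8, 3251.6 and 3625.2 RPM (knockouts), which overlap. The regulatory sum was 3076.7, 3074.6 and 2943.8 RPM (controls) against 2868.7, 2953.6 and 2991.5 RPM (knockouts), which overlap too. Their ratio did not overlap, at 1.004, 1.01 and 1.08 (controls) against 1.10, 1.10 and 1.21 (knockouts). Without Psmb1 and Psmb4, a choice made after seeing the values, the core sum was 2448 ± 13.1 RPM for controls against 2397 ± 109.7 RPM for knockouts (SD, n = 3 each). The ratio to the regulatory sum then overlapped, at 0.796, 0.8001 and 0.827 (controls) against 0.799, 0.809 and 0.839 (knockouts).

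Subunits of the core particle changed in both directions within the same libraries. The ratio of Psmb4 to Psma1, a pair picked after the values were seen as the greatest rise and fall and hence not tested, was 2.23, 2.32 and 2.38 in controls and 4.33, 4.77 and 4.81 in knockouts. Within a library such a ratio is free of scaling, and it shows unequal change of these 2 amplicons, not which of them moved.

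Genes that act on the proteasome were read from lists written down for this purpose. Outside the inducible subunits, 32 such genes were tested, of which 1 rose and 6 fell (21.9% called). Of all tested amplicons 16.7% were called, 5.71% higher and 11.0% lower. Among activators and the inhibitor, Psme4, a nuclear activator, fell from 105.7 ± 11.8 to 82.4 ± 5.84 RPM (log2 fold change -0.35, limma adjusted p = 0.0133). Its limma adjusted p was 0.0855 without control replicate 2 and 0.0583 without knockout replicate 2. The activator gene Psme3 did not pass (log2 fold change -0.10, limma adjusted p = 0.451). The inhibitor gene Psmf1 fell from 57.5 ± 2.58 to 46.4 ± 6.20 RPM (log2 fold change -0.31, limma adjusted p = 0.0425). Psmf1 lost its call in 11 of 16 alternatives, among them the removal of any library except knockout replicate 1 (adjusted p at least 0.0584). The interferon-inducible activator gene Psme1 varied widely, at 127, 97.9 and 58.6 RPM (controls) against 95.1, 144 and 134 RPM (knockouts), and its log2 fold change of 0.44 did not pass (adjusted p = 0.0854). None of the 3 core assembly chaperone genes and none of the 8 shuttle factor genes passed. Of 6 further bound factors, Txnl1, a thioredoxin on the regulatory particle, fell from 73.9 ± 5.31 to 56.8 ± 6.21 RPM (log2 fold change -0.38, limma adjusted p = 0.0111; 0.0753 without control replicate 2 and 0.0566 without knockout replicate 2).

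Of 9 genes for the control of proteasome transcription, 3 fell and none rose, where 11.0% of all tested amplicons fell and 5.71% rose. Their median log2 fold change was -0.00825, with 4 above 0 and 5 below. Nfe2l1, which encodes the factor that raises subunit genes when proteasomes are short, read 203, 189 and 211 RPM (controls) against 174, 162 and 163 RPM (knockouts), with no overlap. Its log2 fold change was -0.27 (limma adjusted p = 0.0191), and the call was lost in 7 of 16 alternatives, among them TMM scaling (0.0564), edgeR (0.0717) and the removal of control replicate 1 (0.0590), control replicate 3 (0.0635) or knockout replicate 2 (0.0792). The oxidative stress factor gene Nfe2l2 read 42.4, 47.8 and 39.997 RPM (controls) against 34.2, 36.6 and 27.1 RPM (knockouts), a log2 fold change of -0.41 (limma adjusted p = 0.0186). It did not pass without control replicate 2 (0.116), without knockout replicate 3 (0.0969), with no filter (0.0605) or with quantile normalization (0.0555). Syvn1, a ubiquitin ligase of the endoplasmic reticulum, fell from 131 ± 5.45 to 89.5 ± 3.09 RPM (-0.54, adjusted p = 1.04e-04) and passed in all 16 alternatives. Uba1, the main ubiquitin-activating enzyme gene, rose from 691 ± 4.32 to 818 ± 21.3 RPM (0.24, adjusted p = 0.0171; 0.0617 without control replicate 2, 0.0538 without knockout replicate 1 and 0.0585 with no filter), while Uba6 was at -0.15 and did not pass.

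Markers of several cell types moved with the groups, where 5.71% of all tested amplicons rose and 11.0% fell. Of the osteoblast markers 5 of 6 fell, with summed levels of 37004 to 40249 RPM (controls) against 31727 to 36607 RPM (knockouts). Most of that sum was Col1a1, which did not pass (means of 28711 against 27669 RPM, limma adjusted p = 0.698). Of the cartilage markers 4 of 7 fell (436 to 460.1 against 346 to 386 RPM), of the muscle markers 3 of 7 (23613 to 27033 against 21631 to 23457 RPM), and of the neutrophil markers 5 of 5 tested (88.4 to 90.1 against 37.4 to 40.8 RPM). The highest muscle marker, Mylpf, did not pass (means of 12626 against 11352 RPM). Of the osteoclast markers 2 of 7 rose and 1 fell (737 to 801 against 1056 to 1078 RPM), and of the macrophage markers 3 of 6 rose and 1 fell (241 to 269 against 260.5 to 287 RPM). Mmp9 gave most of the rise in the osteoclast sum, with means of 411 against 671 RPM. Atp6v0d2 also rose, Calcr fell, and Acp5, Ctsk, Oscar and Dcstamp did not pass. Endothelial markers had 2 of 5 lower (609 to 656 against 609.5 to 648 RPM) and erythroid markers 1 of 3 higher (66.5 to 79.6 against 78.6 to 87.1 RPM). The 5 lymphoid markers were at 0.677 RPM or less in every library, and none of the listed markers was at 0 throughout. The part of these cells in the proteasome results was not tested.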

How the data were processed

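Libraries of 6 humerus shaft RNA samples were made with an Ion AmpliSeq mouse transcriptome panel, per the labels' protocols. The authors deposited RPM (reads scaled to the library total) for 23930 amplicons; no source used here names the aligner, counter or genome build. Every value above 0 was a whole multiple of 1 read within a tolerance of 0.1 read (100%), which gave the recovered reads and depths of 9126493 to 13376550; the protocols name no molecular identifiers. Values were tested as log2(RPM + 1) for the 12846 amplicons averaging 1 RPM or more, with limma 3.58.1 (empirical Bayes with a trend, R 4.3.3), two-sided and Benjamini-Hochberg adjusted at 0.05; such fold changes understate low genes. Alternatives were other pseudocounts, filters and scalings, a replicate block, leaving out each library, and edgeR 4.0.16 and DESeq2 1.42.0 on recovered reads. Of these, edgeR called 1974 amplicons and DESeq2 1773 of 12596. The limma and edgeR fits, but not DESeq2, were run on simulated data with changes only in amplicons above 10 RPM. The simulation gave every amplicon the same spread, so it cannot show how low or unevenly spread amplicons are called. Genes described in full were the catalytic genes with their inducible counterparts, every gene past the threshold, and the 3 with the greatest change in each direction above 10 RPM. Of related genes, every gene past the threshold was named. The members and lists were chosen with earlier results of these data known. Any 2 libraries of a group differed beyond counting noise (chi-square per degree of freedom 4.34 to 7.38). Gene positions are from GENCODE M21. Figures were drawn with matplotlib 3.10.9.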

Additional observations from a re-analysis of the deposited data

How the results depend on the processing

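Psma1, Psmb4 and Psmd5 kept direction and call in all 16 alternatives. The count of higher proteasome genes was 5 with TMM scaling, 5 with median-of-ratios scaling and 5 with edgeR, against 3. Over all amplicons the higher count rose too, to 981, 1079 and 1052 in these settings, against 733. Leaving out libraries gave 3 to 4 higher and 2 to 4 lower proteasome genes. With the replicate block, which rests on a number the labels share between groups (correlations of same-numbered deviations 0.01263, -0.01934 and 0.10686, so that not every library correlated best with its own number), 4 were higher and 3 lower, Psmd10 being added. Over all amplicons, 442 to 705 were higher and 729 to 1324 lower when a library was left out, and the lower count was 869 with no filter, 881 with median-of-ratios scaling, 877 with quantile normalization, 922 with edgeR and 775 with DESeq2, against 1409; the block gave 836 and 1626. The change of core against regulatory means was -0.00609 to 0.05 over the left-out libraries and 0.10 without the chaperones and Psmc3ip. It was 0.0593 with the filter of at least 10 RPM and 0.0482 with a pseudocount of 10 RPM. Log2 fold changes near 0 changed sign without a call. That of Psmb7 was 0.0126 with median-of-ratios scaling, 0.0112 with edgeR and 0.0175 with DESeq2. Psmd11 was 0.00944 with TMM, 0.0227 with median-of-ratios, 0.00362 with quantile, 0.0182 with edgeR and 0.0245 with DESeq2. With TMM, median-of-ratios, edgeR and DESeq2, Psmc6 was 0.0109, 0.0243, 0.0135 and 0.0202 and Psmd3 0.0130, 0.0264, 0.0192 and 0.0252, and Psma6 was -0.00328 with quantile normalization. Over the left-out libraries Psmb7 ran from -0.118 to 0.0225, Psmd11 from -0.115 to 0.0112, Psmc6 from -0.111 to 0.0643, Psmd3 from -0.0662 to 0.0116, Psma6 from -0.0483 to 0.0601 and Psma7 from -0.0648 to 0.0930. The cause was not tested. Scaling moved the median of all genes by at most 0.06. Depth limits Psma8, with 13 reads at the lowest, and Psmb9, with 8.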
